A study of Mus musculus with 10 samples.

Results

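The 30 genes described here make cholesterol and fatty acids or regulate their synthesis, and they were taken by symbol from the array platform's gene table out of 18193 measured genes. All 30 listed symbols were found, and each gene is represented by the probe set with the highest mean log2 intensity over the 10 arrays. The sterol branch holds 17 genes, of which 6 belong to the mevalonate arm, 10 to the arm after it and 1, Stard4, to sterol transport. The fatty acid branch holds 10 genes, and 3 genes are regulators, namely Insig1, Srebf1 and Srebf2.

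Total RNA was hybridised to 10 Affymetrix mouse arrays, 2 for each of 5 groups. All cells were secondary inducible mouse embryonic fibroblasts (MEFs) of a 129/SvJ x C57/B6 hybrid strain, which carry doxycycline-inducible Pou5f1, Sox2, Klf4 and Myc. The control was not induced and was starved for 96 h in 0.5% serum. The 4 induced groups received doxycycline, labelled as 2 ug/ul, in 15% serum for 96 h and had divided 0, 1, 2, or 3 or more times on average. The last group is written 3+ from here on. Induction and serum both differ between the control and every cohort, so their shares in a difference cannot be told apart. The sources used here do not say how the cohorts were separated, and the titles of the 3+ arrays name only the induction.

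The control and 3+ arrays form a set with RMA named as their processing, while the 6 arrays of 0, 1 and 2 divisions have no tool named. A comparison across these sets cannot tell the set from the group. The contrasts of 3+ with control and of 2 with 0 divisions stay within a set. The numbered samples are called biological replicates in the labels for the control and 3+ only. As nothing states separate cultures or animals, the p-values measure the spread between these samples, which may be technical in part. The arrays had medians of 31.4 to 33.95 on the deposited intensity scale, and the 2 arrays of a group correlated with r of 0.986 to 0.993 over probe sets. In bulk RNA, fewer cells with a transcript and less of it per cell cannot be told apart.

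Both branches start from acetyl-CoA. In the mevalonate arm it is built up to farnesyl diphosphate, and the sterol arm turns that through squalene and lanosterol into cholesterol. In the fatty acid branch it becomes malonyl-CoA and palmitate, which elongases and desaturases then lengthen and unsaturate. The transcription factors SREBP-1 and SREBP-2, encoded by Srebf1 and Srebf2, drive genes of both branches, and INSIG proteins hold their precursors back when sterols are plentiful.

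The promoters of 4 genes are printed because the genes behaved differently. Fasn and Elovl6 were higher in 3+ cells than in the control, Fads2 was lower, and Hmgcs1, an early enzyme of the mevalonate arm, did not pass the test. The sequences come from RefSeq on GRCm38.p6 and run 5′ to 3′ from 250 bases before the transcript start to 50 bases after it. Capitals mark matches on either strand to TCACNCCAC, a form of the sterol regulatory element, to the E-box CACGTG, or to CCAAT, the NF-Y box, whose reverse complement is ATTGG.
Fasn promoter, chr11:120824498-120824797, minus strand: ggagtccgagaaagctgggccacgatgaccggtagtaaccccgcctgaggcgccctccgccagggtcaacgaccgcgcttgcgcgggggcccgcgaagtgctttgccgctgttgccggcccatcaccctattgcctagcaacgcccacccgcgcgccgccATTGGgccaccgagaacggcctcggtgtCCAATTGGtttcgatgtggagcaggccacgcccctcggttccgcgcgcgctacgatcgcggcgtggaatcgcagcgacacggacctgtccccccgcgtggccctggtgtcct
Elovl6 promoter, chr3:129532136-129532435, plus strand: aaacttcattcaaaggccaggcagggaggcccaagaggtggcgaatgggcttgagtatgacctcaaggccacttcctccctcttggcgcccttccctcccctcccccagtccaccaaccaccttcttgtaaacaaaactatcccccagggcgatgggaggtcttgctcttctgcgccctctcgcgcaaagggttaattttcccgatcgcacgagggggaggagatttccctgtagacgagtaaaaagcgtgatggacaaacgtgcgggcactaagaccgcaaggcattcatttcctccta
Fads2 promoter, chr19:10101454-10101753, minus strand: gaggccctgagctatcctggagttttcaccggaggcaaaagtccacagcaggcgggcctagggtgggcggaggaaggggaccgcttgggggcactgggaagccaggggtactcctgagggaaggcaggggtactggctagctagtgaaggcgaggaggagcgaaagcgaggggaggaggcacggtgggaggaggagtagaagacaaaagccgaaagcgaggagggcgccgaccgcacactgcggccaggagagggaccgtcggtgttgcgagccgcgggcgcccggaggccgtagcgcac
Hmgcs1 promoter, chr13:119690101-119690400, plus strand: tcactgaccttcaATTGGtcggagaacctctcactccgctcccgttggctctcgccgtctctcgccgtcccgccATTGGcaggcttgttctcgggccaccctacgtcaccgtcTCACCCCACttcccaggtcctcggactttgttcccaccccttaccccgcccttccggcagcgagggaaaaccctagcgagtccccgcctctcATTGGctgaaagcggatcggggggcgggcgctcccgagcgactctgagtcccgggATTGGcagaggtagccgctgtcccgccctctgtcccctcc

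The Hmgcs1 window held 1 match to TCACNCCAC and 4 to CCAAT, and the Fasn window held 3 matches to CCAAT, a pair of which overlap. Neither the Elovl6 nor the Fads2 window held a match to any of these letters. Windows were found for 23 of the 30 genes, 29 windows in all, since some genes have several starts. CCAAT occurred in 13 of 16 sterol windows, which is 81.2%. It occurred in 4 of 8 fatty acid windows, against 37.4% of the 32851 windows of the table. TCACNCCAC occurred in 1 sterol window and in no fatty acid window, against 1.24% of all windows. CACGTG was found in 3 of 16 sterol and 0 of 8 fatty acid windows, against 7.15% of all windows. A match describes the letters only.

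In 3+ cells against the control, 8 of the 30 genes changed, 6 upward and 2 downward, at an adjusted p under 0.05 by limma over all genes. Among all 18193 genes 27.6% passed the same test, 15.9% upward and 11.7% downward. The fatty acid branch held 7 of the 8 calls, with 5 genes higher and 2 lower of its 10. The sterol branch held 1 call, Dhcr7, among 17 genes, and none of the 3 regulators passed. The median log2 difference was 0.55 over the fatty acid genes and 0.0029 over the sterol genes, against 0.024 over all genes. Without 1 array the sterol median ranged over -0.12 to 0.24, below 0 without 3+ replicate 1 or control replicate 1. Above 0 were 7 fatty acid and 9 sterol genes, beside 52.8% of all genes. Both 3+ arrays lay above both control arrays in 7 sterol genes and below them in 1, beside 34.6% and 28.6% of all genes. A fit with replicate number as a blocking term called 9 genes higher and 2 lower, beside 37.8% of all genes. The block added Pmvk, Ebp and Stard4. Without 3+ replicate 2 the count of 8 was 4.

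Scd1, the stearoyl-CoA desaturase that makes oleate, had the largest rise of the branch (probe set 1415964_at). Its log2 intensity was 8.39 and 9.03 in the control, 8.67 and 9.46 after 0 divisions, 9.51 and 9.88 after 1, 10.21 and 10.00 after 2, and 10.80 and 10.63 in 3+ cells. The group means ran in the order of divisions, although the arrays of the control and of 0 divisions overlapped. The 3+ mean of 10.72 ± 0.12 stood against 8.71 ± 0.45 in the control (SD, n = 2 each). The difference was 2.01 ± 0.30 on the log2 scale (SE), 4.02-fold, with an adjusted p of 0.0021 by limma.

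Elovl6 (probe set 1417404_at) lengthens palmitate to stearate, the substrate of Scd1. Its log2 intensity was 8.71 and 8.33 in the control, 8.94 and 8.82 after 0 divisions, 9.21 and 9.11 after 1, 9.47 and 9.22 after 2, and 10.31 and 10.50 in 3+ cells. No array of an induced group lay at or below a control array, and the 2 arrays of 3+ cells lay highest. The 3+ mean exceeded the control mean by 1.88 ± 0.16 on the log2 scale (SE), 3.69-fold, with a limma adjusted p of 0.000301.

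Fasn (probe set 1423828_at) encodes fatty acid synthase, which builds palmitate from malonyl-CoA. Its log2 intensity was 9.55 and 9.74 in the control, 9.79 and 10.01 after 0 divisions, 9.66 and 10.23 after 1, 9.99 and 9.97 after 2, and 10.90 and 11.21 in 3+ cells. The arrays of 0, 1 and 2 divisions lay among each other, and both 3+ arrays lay above all others. Against the control the 3+ difference was 1.41 ± 0.20 on the log2 scale, 2.65-fold, with a limma adjusted p of 0.00185.

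Acaca (probe set 1434185_at), the acetyl-CoA carboxylase that supplies malonyl-CoA, had the same shape with a smaller step. Its log2 intensity was 8.07 and 8.11 in the control, 8.14 and 8.31 after 0 divisions, 7.96 and 8.35 after 1, 7.90 and 8.01 after 2, and 8.78 and 8.91 in 3+ cells. Only the 3+ arrays stood apart from the rest. The 3+ difference from control was 0.76 ± 0.15 with a limma adjusted p of 0.00713, which became 0.0571 without 3+ replicate 2.

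Acly (probe set 1451666_at), the ATP-citrate lyase that releases cytosolic acetyl-CoA, was 9.94 and 10.18 in the control, 10.22 and 10.36 after 0 divisions, 10.06 and 10.40 after 1, 10.19 and 10.26 after 2, and 10.63 and 10.65 in 3+ cells. The 3+ difference from control was 0.59 ± 0.15 on the log2 scale, with a limma adjusted p of 0.0198. This call was lost without 3+ replicate 1 (0.075), 3+ replicate 2 (0.0977) or control replicate 1 (0.113), and also where all probe sets of the gene were averaged (0.0723).

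The desaturases of polyunsaturated fatty acids went the other way. Fads1 (probe set 1423680_at) was 9.65 and 9.93 in the control, 9.29 and 9.23 after 0 divisions, 9.34 and 9.27 after 1, 9.45 and 9.25 after 2, and 8.42 and 8.25 in 3+ cells. The control lay highest, the cohorts of 0 to 2 divisions shared a middle level, and the 3+ arrays lay lowest. The 3+ difference from control was -1.45 ± 0.14, 2.74-fold lower, with a limma adjusted p of 0.000415.

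Fads2 (probe set 1449325_at) was 7.56 and 7.78 in the control, 6.88 and 7.41 after 0 divisions, 6.99 and 7.51 after 1, 6.42 and 7.04 after 2, and 6.57 and 6.30 in 3+ cells. Every induced array lay below both control arrays, and the cohorts overlapped with their neighbours. The 3+ difference from control was -1.24 ± 0.28 with a limma adjusted p of 0.0128. It passed the threshold in neither of the fits without 3+ replicate 2 (0.0914) and without control replicate 2 (0.0638).

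The remaining 3 fatty acid genes did not pass the test against the control. Scd2, a desaturase paralogous to Scd1, averaged 12.48 ± 0.0097 in 3+ cells and 11.96 ± 0.43 in the control (SD, n = 2 each), with a limma adjusted p of 0.115. Its means after 0, 1 and 2 divisions were 11.84, 11.80 and 11.72. Me1, the malic enzyme that supplies NADPH, averaged 11.43 in 3+ cells and 11.52 in the control, and 11.40, 11.30 and 11.14 after 0, 1 and 2 divisions. Acss2, which makes acetyl-CoA from acetate, averaged 7.35 in 3+ cells and 7.21 in the control, and between 7.15 and 7.22 in the other cohorts.

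**Figure D1:**
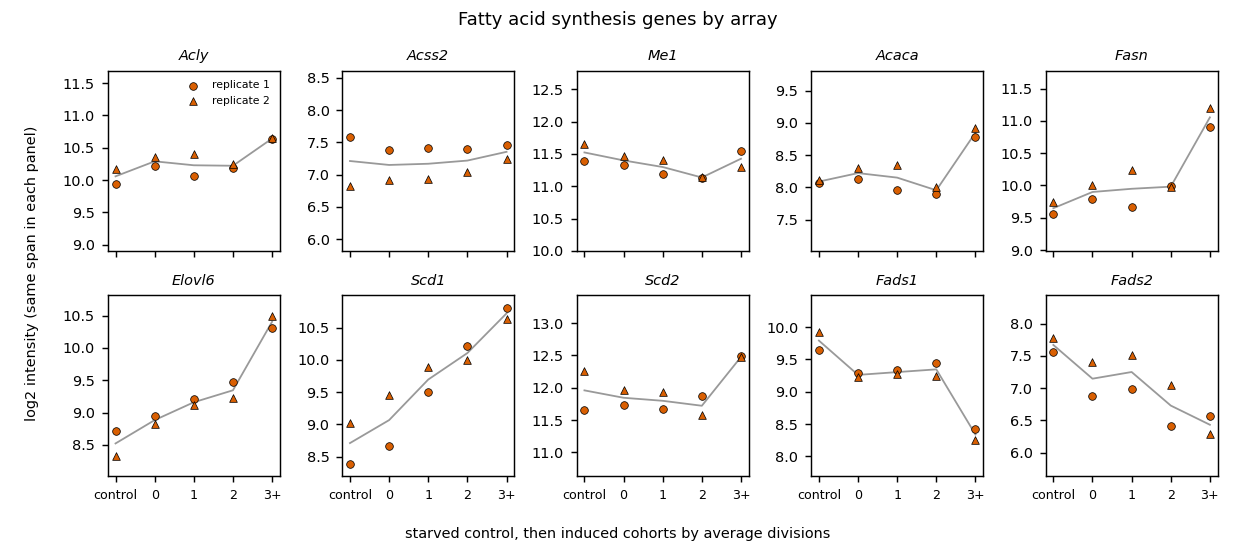
Log2 intensity (y axis, the same span in every panel) of the 10 fatty acid genes in the starved control and the cohorts of 0, 1, 2 and 3+ divisions (x axis). Circles are replicate 1, triangles replicate 2 and lines join the group means. The means of Scd1 and Elovl6 climb with each group, Fasn and Acaca stand apart in 3+ cells, and Fads1 and Fads2 are lowest there.

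Within the mevalonate arm no gene passed the limma test between 3+ cells and the control. Idi1, the isopentenyl diphosphate isomerase, was 8.95 and 9.17 in the control, 8.36 and 8.71 after 0 divisions, 8.85 and 9.33 after 1, 9.87 and 8.45 after 2, and 9.96 and 9.89 in 3+ cells. Both 3+ arrays lay above all others, and the 2 arrays of 2 divisions lay far apart. Its 3+ difference from control was 0.87 ± 0.41 with an adjusted p of 0.161 by limma.

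Pmvk, the phosphomevalonate kinase, averaged 7.40 ± 0.057 in 3+ cells and 6.86 ± 0.12 in the control (SD, n = 2 each). The limma adjusted p was 0.0600, and 0.0227 in the fit with the replicate number as a block. Mvd, the decarboxylase that follows it, averaged 7.19 in 3+ cells and 6.62 in the control, and Hmgcs1 averaged 11.34 in 3+ cells and 11.43 in the control. Mvk, the mevalonate kinase, lay between 6.73 and 7.14 on all 10 arrays. Its values were 6.92 and 7.10 in the control, 6.73 and 7.05 after 0 divisions, 6.77 and 7.02 after 1, 6.92 and 6.73 after 2, and 7.14 and 6.88 in 3+ cells. The groups of Mvk overlapped throughout. Fdps, the farnesyl diphosphate synthase, was 9.01 and 9.70 in the control, 8.44 and 8.86 after 0 divisions, 8.35 and 9.21 after 1, 9.02 and 8.19 after 2, and 9.27 and 9.11 in 3+ cells. Every group of Fdps other than 0 divisions overlapped with the control.

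After farnesyl diphosphate, Dhcr7 was the sole sterol gene with a call in 3+ cells against the control. It encodes the reductase that turns 7-dehydrocholesterol into cholesterol (probe set 1448619_at). Its log2 intensity was 6.97 and 7.70 in the control, 7.04 and 7.62 after 0 divisions, 7.71 and 8.18 after 1, 7.51 and 7.90 after 2, and 8.57 and 8.66 in 3+ cells. The control and the cohort of 0 divisions covered the same range, and both 3+ arrays lay highest. The 3+ difference from control was 1.28 ± 0.30, 2.44-fold, with a limma adjusted p of 0.0145. The call was lost without 3+ replicate 1 (0.0568), 3+ replicate 2 (0.0868) or control replicate 1 (0.0802).

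Ebp, the sterol isomerase that acts upstream of it, was 8.65 and 8.98 in the control, 8.69 and 9.00 after 0 divisions, 8.63 and 9.17 after 1, 9.26 and 9.06 after 2, and 9.42 and 9.47 in 3+ cells. The arrays of 2 and of 3+ divisions lay above both control arrays. The 3+ difference from control was 0.63 ± 0.21 with a limma adjusted p of 0.0577, and of 0.0195 with the block.

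Lss, the lanosterol synthase, was 7.50 and 8.07 in the control, 7.44 and 7.49 after 0 divisions, 7.67 and 7.70 after 1, 8.01 and 7.54 after 2, and 8.48 and 8.22 in 3+ cells. The 3+ arrays lay above all others, and the 3+ difference from control, 0.57 ± 0.22, had a limma adjusted p of 0.0975. Stard4, a soluble carrier of cholesterol between membranes, was 7.47 and 8.03 in the control, 7.15 and 7.57 after 0 divisions, 7.60 and 7.89 after 1, 8.23 and 7.41 after 2, and 8.61 and 8.67 in 3+ cells. Both 3+ arrays of Stard4 lay highest, with a difference from control of 0.89 ± 0.30, a limma adjusted p of 0.0607, and of 0.0402 with the block.

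For Sqle and Fdft1 the 3+ arrays overlapped with the control arrays. Sqle, the squalene epoxidase, was 9.51 and 10.24 in the control, 9.04 and 9.33 after 0 divisions, 8.90 and 9.65 after 1, 9.61 and 8.79 after 2, and 9.73 and 9.50 in 3+ cells. Fdft1, the squalene synthase, was 9.89 and 10.50 in the control, 9.36 and 9.43 after 0 divisions, 9.53 and 9.87 after 1, 10.25 and 9.29 after 2, and 10.25 and 10.02 in 3+ cells. The lowest mean of each was in the cohort of 0 divisions and the highest in the control. Sqle had the largest negative difference of the sterol branch in 3+ cells against the control, -0.26 ± 0.36 with a limma adjusted p of 0.672, while that of Fdft1 was -0.058 ± 0.32 with 0.922.

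The other sterol arm genes averaged as follows in 3+ cells and in the control. Cyp51, the lanosterol demethylase, averaged 8.99 in 3+ cells and 9.20 in the control, and Msmo1, the methylsterol monooxygenase, averaged 9.95 in 3+ cells and 9.80 in the control. Nsdhl, which acts in the same removal of methyl groups, averaged 8.94 in 3+ cells and 9.10 in the control. Sc5d, a sterol desaturase, averaged 8.70 in 3+ cells and 8.92 in the control. It was the sole sterol gene with both 3+ arrays below both control arrays, and its other probe sets differed by -0.64 and -0.41. None of Cyp51, Msmo1, Nsdhl and Sc5d passed the limma test. Hsd17b7, the ketosterol reductase, was 9.02 and 9.41 in the control, 8.92 and 9.24 after 0 divisions, 8.93 and 9.50 after 1, 9.26 and 8.74 after 2, and 9.34 and 9.09 in 3+ cells, and its groups overlapped.

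Among the regulators, Insig1 was 7.45 and 8.19 in the control, 7.45 and 7.63 after 0 divisions, 7.77 and 8.17 after 1, 8.55 and 8.11 after 2, and 8.48 and 7.92 in 3+ cells. Srebf1 was 9.20 and 9.66 in the control, 9.19 and 9.37 after 0 divisions, 9.48 and 9.53 after 1, 9.49 and 9.75 after 2, and 9.75 and 9.56 in 3+ cells. Srebf2 was 7.76 and 8.20 in the control, 7.42 and 7.77 after 0 divisions, 7.60 and 7.95 after 1, 7.71 and 7.75 after 2, and 8.15 and 7.92 in 3+ cells. In all of them the 3+ arrays overlapped with the control arrays. The 3+ differences from control were 0.38 ± 0.30, 0.22 ± 0.18 and 0.058 ± 0.20 for Insig1, Srebf1 and Srebf2, with limma adjusted p values of 0.415, 0.41 and 0.872.

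**Figure D2:**
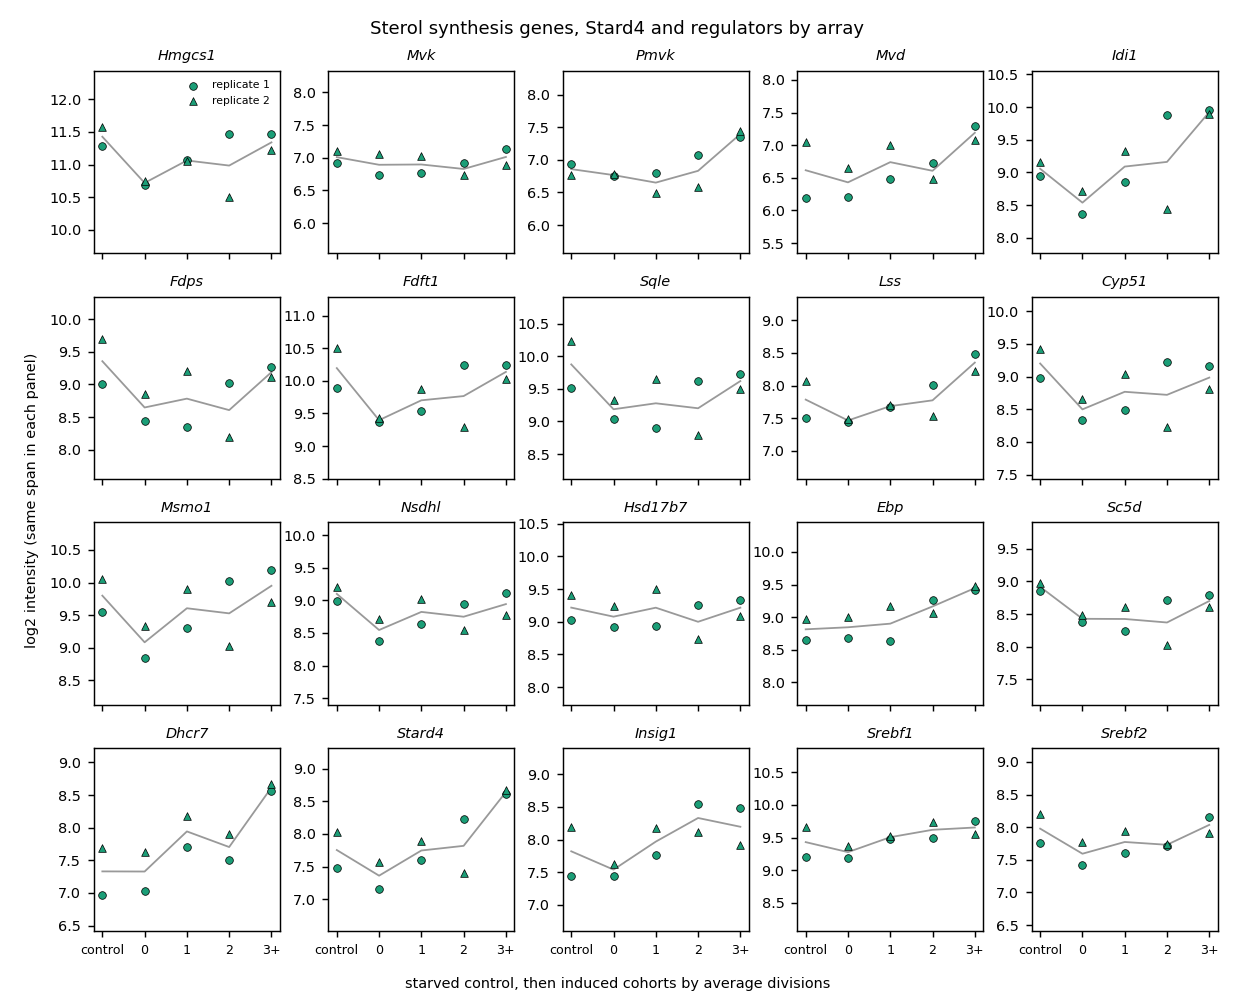
Log2 intensity (y axis, the same span in every panel) of the 17 sterol genes and the 3 regulators in the starved control and the cohorts of 0, 1, 2 and 3+ divisions (x axis). Circles are replicate 1, triangles replicate 2 and lines join the group means. The means of Fdft1, Sqle and Cyp51 are lowest or near their lowest after 0 divisions, and the 2 arrays of 2 divisions lie far apart for most sterol genes.

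Induced cells labelled with 0 divisions were set against the control to see what differed without division. No gene of the 30 passed the limma test, nor did any with the replicate block, while 0.297% of all genes passed without the block and 3.25% with it. At an unadjusted p under 0.05 there were 4 genes, near the 11.7% of all genes that reached it. The sterol genes nevertheless lay on one side, with 16 of 17 below 0 against 50.9% of all genes. Their median log2 difference was -0.49, against 0.035 for the fatty acid genes and -0.0046 for all genes. It was -0.32 without control replicate 2, and at its lowest -0.63 without control replicate 1. In 10 of the 17 both arrays of 0 divisions lay below both control arrays, which was so for 19.3% of all genes. The largest negative difference was that of Fdft1, -0.80 ± 0.32 with a limma adjusted p of 0.377. The sole positive one was that of Ebp, 0.031 ± 0.21 with 0.979.

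The fatty acid genes were split after 0 divisions, 5 above and 5 below 0. The largest positive difference was that of Elovl6, 0.36 ± 0.16 with a limma adjusted p of 0.437, and the largest negative one that of Fads1, -0.53 ± 0.14 with 0.173. All 3 regulators lay below 0, Srebf2 by -0.38 ± 0.20 and Srebf1 by -0.15 ± 0.18, with limma adjusted p values of 0.534 and 0.821. These contrasts set arrays of separate sets against each other, so set and group cannot be told apart.

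After 1 division, 0 of the 30 genes passed the limma test against the control, and 1 did with the replicate block. That gene was Elovl6, with a difference of 0.64 ± 0.16 and adjusted p values of 0.114 without and 0.0363 with the block. Of all genes 1.24% passed without and 7.02% with the block, and 3 of the 30 had an unadjusted p under 0.05, beside 14.7% of all genes. Scd1 had the largest positive difference, 0.98 ± 0.30 with a limma adjusted p of 0.173, and Fads1 the largest negative one of its branch, -0.49 ± 0.14 with 0.147. In the sterol branch Dhcr7 lay 0.61 ± 0.30 above the control (limma adjusted p of 0.401) and Sqle -0.60 ± 0.36 from it (0.518). In the sterol branch 13 of 17 genes lay below 0, beside 49.2% of all genes. Set and group cannot be told apart in this contrast. The sterol median was -0.19 and the fatty acid median 0.0094. The sterol median was -0.081 without replicate 1 of 1 division, -0.38 without control replicate 1 and -0.023 without control replicate 2. Among the regulators Insig1 lay 0.15 ± 0.30 above the control and Srebf2 at -0.20 ± 0.20, with limma adjusted p values of 0.888 and 0.732.

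After 2 divisions, Elovl6 and Scd1 were higher than in the control, 2 of the 30 genes against 6.12% of all genes. Set and group cannot be told apart here either. Elovl6 differed by 0.82 ± 0.16 (limma adjusted p of 0.0262) and Scd1 by 1.39 ± 0.30 (0.035). With the block Fads2 was lower as well, by -0.94 ± 0.28 with an adjusted p of 0.0950 without and 0.0188 with it, where 15.5% of all genes passed. The count of 2 became 0 without either array of 2 divisions or without control replicate 2, and 1, Elovl6, without control replicate 1. Elovl6 also missed with all probe sets averaged (0.0563). The count was also 0 with a floor of 16 and in a fit of the 4 arrays alone. In the sterol branch 13 of 17 genes lay below 0 against 49.1% of all genes, with a median of -0.22. Without replicate 2 of 2 divisions that median was 0.053, and without the other arrays in turn -0.55 to -0.092. The extremes there were Fdps, -0.75 ± 0.38 with a limma adjusted p of 0.31, and Dhcr7, 0.37 ± 0.30 with 0.542. Among the regulators they were Insig1, 0.51 ± 0.30 with 0.39, and Srebf2, -0.25 ± 0.20 with 0.552.

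Cells of 2 divisions were then compared with cells of 0 divisions, both induced and both in the same set of arrays. None of the 30 genes passed the limma test, nor with the block, while 0.055% of all genes passed without it and 1.13% with it. At an unadjusted p under 0.05 there were 3 genes, beside 7.76% of all genes, and Scd1 had the largest difference, 1.04 ± 0.30 with a limma adjusted p of 0.412. Fads2 had the largest negative one, -0.42 ± 0.28 with 0.829. Insig1 lay 0.79 ± 0.30 higher (0.568), with both arrays above those of 0 divisions, and Srebf2 0.14 ± 0.20 higher (0.956). In the sterol branch 13 of 17 genes lay above 0, beside 51.8% of all genes. The sterol median was 0.22, with Idi1 at 0.62 ± 0.41 (0.822) and Hsd17b7 at -0.078 ± 0.26 (0.986) as its extremes. That median ranged over 0.058 to 0.42 without each of 3 arrays, and without replicate 1 of 2 divisions it was -0.11, where the difference of Idi1 was -0.090.

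Against cells of 0 divisions, 8 of the 30 genes changed in 3+ cells, 7 upward and 1 downward, beside 13.9% of all genes, 8.46% upward and 5.44% downward. This comparison shares its 3+ arrays with that against the control. It crosses the sets of arrays, so set and group cannot be told apart in either branch. In the fatty acid branch Scd1 rose by 1.65 ± 0.30, Elovl6 by 1.52 ± 0.16, Fasn by 1.16 ± 0.20 and Acaca by 0.63 ± 0.15, with limma adjusted p values of 0.012, 0.00259, 0.0112 and 0.0306. Fads1 fell by 0.92 ± 0.14 on the log2 scale, with a limma adjusted p of 0.00709. In the sterol branch Dhcr7 rose by 1.29 ± 0.30, Stard4 by 1.28 ± 0.30 and Lss by 0.89 ± 0.22, with limma adjusted p values of 0.0282, 0.0285 and 0.0358.

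All 17 sterol genes lay above 0 in this contrast, against 54.4% of all genes, and in 15 of them both 3+ arrays lay above both arrays of 0 divisions, against 33.5% of all genes. Their median was 0.62, beside 0.49 for the fatty acid genes, 0.44 for the regulators and 0.031 for all genes. Idi1 had the largest difference, 1.39 ± 0.41 with a limma adjusted p of 0.0605, and Mvk the smallest, 0.12 ± 0.17 with 0.712. Insig1 and Srebf1 lay 0.66 ± 0.30 and 0.38 ± 0.18 higher, with limma adjusted p values of 0.2 and 0.212. With the replicate block 13 genes passed, beside 25.6% of all genes, 11 upward and 2 downward. The block added Pmvk, Idi1, Ebp and Scd2 upward and Fads2 downward, with adjusted p values of 0.0172, 0.0337, 0.0348, 0.0434 and 0.0362. The count of 8 was 3 without 3+ replicate 1, 1 without 3+ replicate 2, 1 without replicate 1 and 5 without replicate 2 of 0 divisions, and Elovl6 passed in each of these fits. Fasn and Fads1 were the others left without 3+ replicate 1, and Lss, Acaca and Stard4 were those lost without replicate 2 of 0 divisions. Lss, Acaca and Fads1 also missed the threshold with all probe sets of a gene averaged, with adjusted p values of 0.526, 0.163 and 0.0926. It was 5 with a floor of 16, where Dhcr7, Stard4 and Lss no longer passed, with adjusted p values of 0.0702, 0.0714 and 0.0749.

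**Figure D3:**
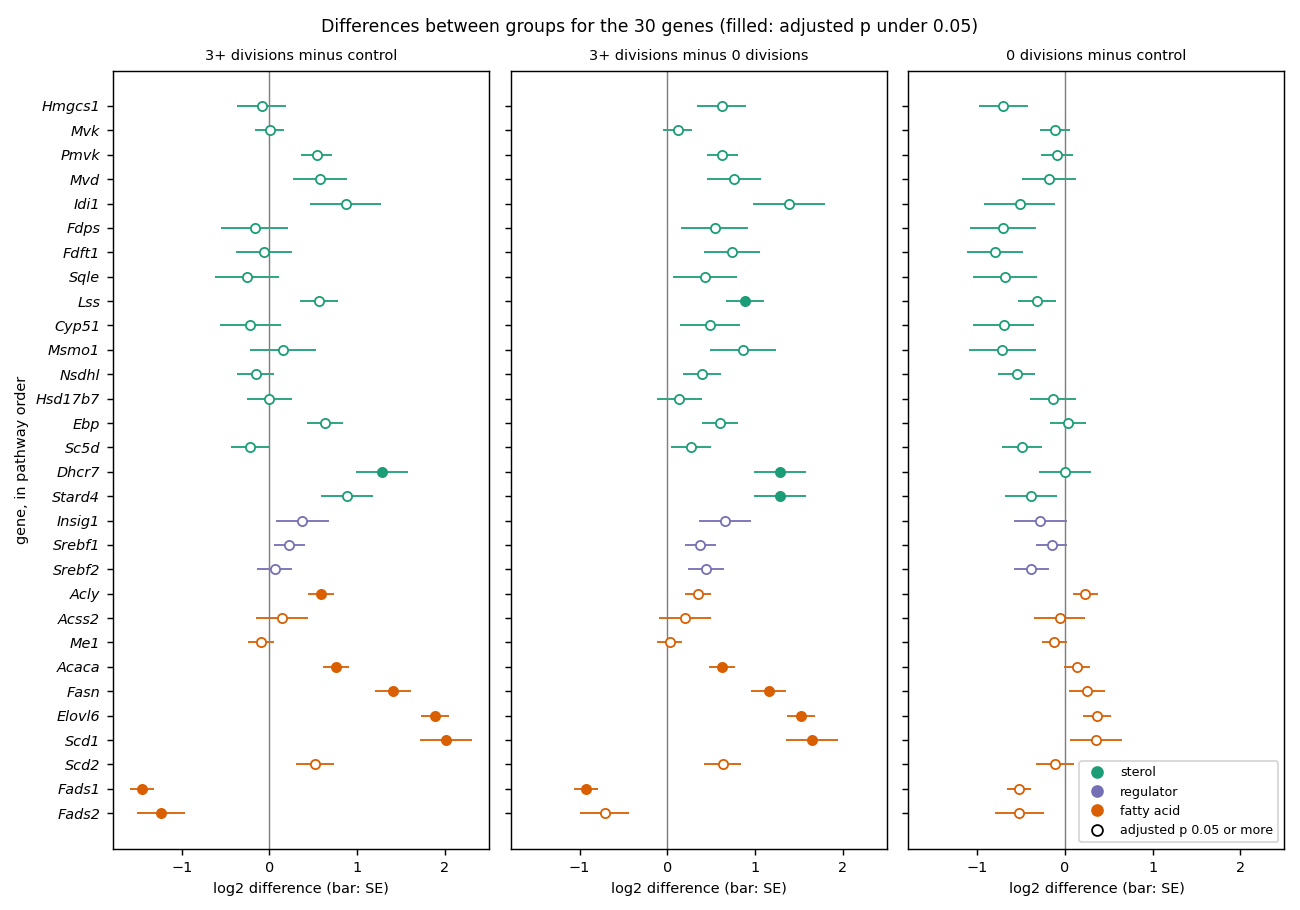
Log2 difference (x axis) of each of the 30 genes (y axis, in pathway order) for 3+ cells minus control, 3+ cells minus cells of 0 divisions, and cells of 0 divisions minus control. Bars are the SE of the limma fit and filled points have an adjusted p under 0.05. In the first panel 9 sterol genes lie above 0 and 8 below, from -0.26 to 1.28. The sterol genes lie above 0 in the second panel and, apart from Ebp, below 0 in the third.

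Between 3+ cells and cells of 2 divisions, 4 of the 30 genes changed, beside 5.97% of all genes. Here too the arrays come from separate sets, so set and group cannot be told apart. Fasn rose by 1.07 ± 0.20, Elovl6 by 1.06 ± 0.16 and Acaca by 0.89 ± 0.15, with limma adjusted p values of 0.0312, 0.0223 and 0.027. Fads1 fell by 1.01 ± 0.14 on the log2 scale, with a limma adjusted p of 0.0179. Scd1 did not pass here, with 0.61 ± 0.30 and an adjusted p of 0.267 by limma. With the block 8 genes passed, beside 19% of all genes, and those added were Dhcr7, Pmvk, Acly and Scd2, all upward, with adjusted p values of 0.00676, 0.035, 0.0402 and 0.0284. The count of 4 was 2 without 3+ replicate 1, namely Elovl6 and Fads1, and 0 without 3+ replicate 2 or without either array of 2 divisions. Fasn also missed the threshold with a floor of 16 (0.0619), and Fads1 with all probe sets averaged (0.273).

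All 17 sterol genes lay above 0 between 3+ cells and cells of 2 divisions, against 54% of all genes, with a median of 0.42. In 8 of them both 3+ arrays lay above both others, beside 30.8% of all genes. That median was 0.81 without replicate 1 of 2 divisions and 0.050 without its replicate 2. Dhcr7 had the largest difference of the branch, 0.91 ± 0.30 with a limma adjusted p of 0.113, and Mvk the smallest, 0.18 ± 0.17 with 0.576. Among the regulators Srebf2 lay 0.31 ± 0.20 higher and Insig1 at -0.13 ± 0.30, with limma adjusted p values of 0.425 and 0.845.

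Over the 5 groups together, limma's F test called 5 of the 30 genes, all of them in the fatty acid branch, beside 14.9% of all genes. They were Elovl6, Fads1, Fasn, Scd1 and Acaca, with adjusted p values of 0.00315, 0.00451, 0.0152, 0.0153 and 0.0266. With the block 9 genes passed, beside 28.4% of all genes. The block added Dhcr7, Fads2, Pmvk and Acly, with adjusted p values of 0.00197, 0.0132, 0.0339 and 0.0396. Without 3+ replicate 1, without 3+ replicate 2, or with a floor of 16, 2 genes passed the F test.

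The branches differed in level from array to array. Each gene was centred on its own mean over the 10 arrays, and the median over a branch was taken on every array. For the fatty acid genes this median was -0.24 and -0.13 in the control, -0.14 and 0.0085 after 0 divisions, -0.16 and 0.076 after 1, -0.098 and -0.087 after 2, and 0.44 and 0.44 in 3+ cells. The 3+ arrays lay above all others. For the sterol genes it was -0.0080 and 0.33 in the control, -0.45 and -0.12 after 0 divisions, -0.26 and 0.17 after 1, 0.18 and -0.46 after 2, and 0.39 and 0.19 in 3+ cells. The sterol ranges of the control and of 3+ cells overlapped. The SD of this median between replicates, pooled over the groups, was 0.29 for the sterol genes and 0.095 for the fatty acid genes.

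**Figure D4:**
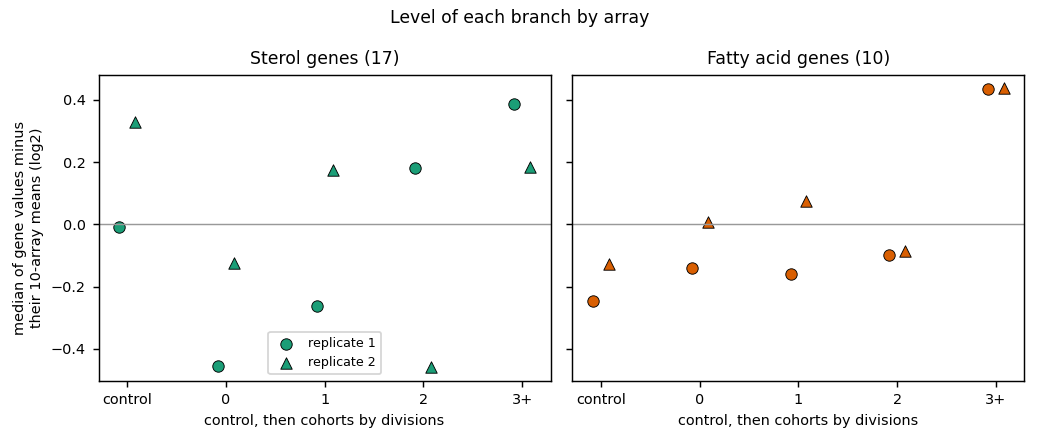
Median over the 17 sterol genes (left) and the 10 fatty acid genes (right) of log2 intensity minus each gene's mean over 10 arrays (y axis), by array, in the starved control and the cohorts of 0, 1, 2 and 3+ divisions (x axis). Circles are replicate 1 and triangles replicate 2. The fatty acid medians of 3+ cells are both 0.44, above all other arrays, while the sterol medians of a group differ by up to the gap between 0.18 and -0.46 after 2 divisions.

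Most sterol genes moved together between the 2 arrays of a group. Replicate 2 exceeded replicate 1 in 17 of 17 sterol genes after 0 divisions, in 15 after 1 division and in 16 in the control. It was lower than replicate 1 in 16 of 17 after 2 divisions and in 13 of 17 in 3+ cells. Cells of 2 divisions had the widest gap, with a median of -0.69 for replicate 2 minus replicate 1, beside 0.020 for all genes. Idi1 shows it, with 9.87 on replicate 1 and 8.45 on replicate 2. The median replicate SD was 0.35 for sterol genes, 0.19 for fatty acid genes and 0.16 for all genes.

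**Figure D5:**
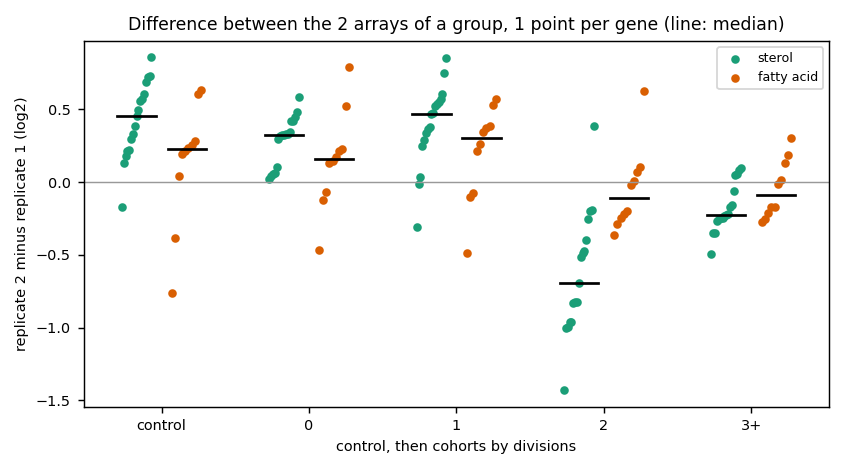
Log2 intensity of replicate 2 minus replicate 1 (y axis) for each sterol gene and each fatty acid gene in the starved control and the cohorts of 0, 1, 2 and 3+ divisions (x axis). Each point is a gene and each black line a median. The sterol medians are 0.46 in the control, 0.33 after 0 divisions, 0.47 after 1, -0.69 after 2 and -0.22 in 3+ cells.

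Other probe sets of the same genes were examined, since 22 of the 30 genes have more than 1. The second Scd1 probe set, 1415965_at, differed by 2.12 between 3+ cells and the control, and 1417403_at of Elovl6 differed by 1.63. Those of Fads2 differed by -1.87 and -1.29, and 1440444_at of Fads1 by -1.14. The dimmer Srebf2 probe set, 1426744_at, differed by 0.67, against 0.058 for the chosen one, and the mean of both by 0.36. Of the 41 probe sets not chosen, 13 had the opposite sign of the chosen one. They were 1441536_at of Hmgcs1, 1430619_a_at of Mvk, 1438150_at of Fdps, 1438919_x_at of Fdft1, 1426913_at and 1420014_at of Lss, 1422534_at of Cyp51, 1446315_at of Acly, 1430307_a_at of Me1, 1415824_at of Scd2, and 1448865_at, 1417871_at and 1440057_at of Hsd17b7. Among these genes only Acly had a call in 3+ cells against the control, and its probe set 1446315_at had a mean of 4.02 and a difference of -0.22. Its brighter probe set 1439459_x_at, with a mean of 10.16, differed by 0.89. The means of 1441536_at, 1438150_at, 1438919_x_at, 1420014_at, 1422534_at and 1440057_at were also low, 3.10 to 4.73. The chosen differences of Hsd17b7 and Mvk were near 0, at -0.0012 and 0.0029.

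Further genes of the pathways, chosen with earlier results of these data known, were counted in the same fits. Of 24 other fatty acid and lipid synthesis genes 23 were measured, and 5 were higher and 0 lower in 3+ cells than in the control, beside 15.9% of all genes higher and 11.7% lower. With the block 7 were higher, beside 3720 of 18193 genes. Dgat2, which closes triglyceride synthesis, averaged 8.31 ± 0.17 in 3+ cells and 6.03 ± 0.43 in the control (SD, n = 2 each), a rise of 2.28 ± 0.27 with a limma adjusted p of 0.000905. Hsd17b12, a reductase of the elongation cycle, rose by 1.43 ± 0.24 with 0.00328, and Acsl4, an acyl-CoA synthetase, by 1.23 ± 0.31 with 0.021. Against 0 divisions 3 of the 23 rose, Dgat2 by 1.52 ± 0.27, Acsl4 by 1.24 ± 0.31 and Hsd17b12 by 1.01 ± 0.24, with limma adjusted p values of 0.0118, 0.0371 and 0.0289, and with the block 5 did. Of all genes 8.46% were higher there without the block, and 2611 of 18193 with it. After 2 divisions Dgat2 was the sole call against the control, 1.17 ± 0.27 with a limma adjusted p of 0.048, beside 6.12% of all genes. With the block 4 were higher, beside 1658 of 18193 genes. After 0 divisions none of the list was called against the control, beside 0.297% of all genes. Dgat2 had the largest difference there, 0.76 ± 0.27 with a limma adjusted p of 0.322. Apart from 3+ cells against the control, these contrasts cross the sets of arrays, so set and group cannot be told apart. Against the control, Dgat2 and Hsd17b12 passed in 3+ cells under every alternative run, while Acsl4 was lost without either 3+ array or control replicate 1 (0.0558 to 0.129). Against 0 divisions all 3 were lost without 3+ replicate 2 or without replicate 1 of 0 divisions (0.0659 to 0.216). Without replicate 2 of 0 divisions Dgat2 and Hsd17b12 were lost (0.0649 and 0.0567), and without 3+ replicate 1 Hsd17b12 and Acsl4 (0.0927 and 0.0873). The Dgat2 call after 2 divisions was lost without each of the 4 arrays in turn (0.0531 to 0.252).

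Of 10 other sterol synthesis genes 6 were measured. Lbr, a lamin B receptor with sterol reductase activity, was higher in 3+ cells than in the control by 1.30 ± 0.18, with a limma adjusted p of 0.00155, and than after 0 divisions by 1.14 ± 0.18, with 0.008. Fdx1, an electron carrier of steroid synthesis, was lower than in the control by -0.81 ± 0.26 with 0.0498, and against 0 divisions it was called lower with the block alone (0.138 without and 0.0327 with it). Of 11 genes of the SREBP machinery and of sterol uptake 8 were measured, and 3 were higher and 2 lower in 3+ cells than in the control, where 27.6% of all genes were called. With the block 4 were higher, beside 3720 of 18193 genes. Scap, the escort of SREBP precursors, was added with adjusted p values of 0.0503 without and 0.00261 with it. Lrp8, a lipoprotein receptor, rose by 1.64 ± 0.38 and Tmem97, a sterol-regulated membrane protein, by 1.26 ± 0.28, with limma adjusted p values of 0.014 and 0.0116. Mbtps1, a protease that cleaves SREBP precursors, was lower by -0.61 ± 0.15 with 0.0184. Mbtps2 was called in the other direction, higher than in the control. That call was lost in 4 of 11 alternatives, among them the fit of the 4 arrays alone (0.47, limma adjusted p of 0.0578). Against 0 divisions Lrp8 was higher in 3+ cells by 1.55 ± 0.38 and Mbtps1 lower by -0.59 ± 0.15, with limma adjusted p values of 0.0335 and 0.0372. Of all genes 8.46% were higher and 5.44% lower there. With the block 3 of the 8 were higher and 1 lower, beside 2611 and 2041 of 18193 genes. Contrasts with 0 divisions cross the sets of arrays, so set and group cannot be told apart. Lbr passed against the control under every alternative run, and against 0 divisions it was lost without 3+ replicate 2 (0.0724) or replicate 2 of 0 divisions (0.0504). Fdx1 was lost without either 3+ array or control replicate 1 (0.132 to 0.246), and also with no normalization (0.0532), median centring (0.0663), a floor of 16 (0.101) or the 4 arrays alone (0.0924). Lrp8, Tmem97 and Mbtps1 were lost against the control without 3+ replicate 2 (0.104, 0.0893 and 0.117) or control replicate 1 (0.0814, 0.0706 and 0.106). Against 0 divisions Lrp8 and Mbtps1 were lost without either 3+ array or replicate 1 of 0 divisions (0.0599 to 0.217), and Mbtps1 without its replicate 2 as well (0.0604).

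Markers of the fibroblast and of other cell types moved with the 3+ group, and their part in these results was not tested. The summed intensity of 10 fibroblast markers was 74248 to 86116 in 3+ cells, against 136011 to 139446 in the control. Of the 10, 7 fell, beside 11.7% of all genes. With the block 8 fell, beside 3149 of 18193 genes. All 10 had means above the median gene in each group. The sum of 10 keratinocyte markers was 3750 to 3957 in 3+ cells, against 314 to 383 in the control. Of the 10, 6 rose, among them Krt16, Krt14 and Krt6a, and 0 fell, beside 15.9% and 11.7% of all genes. Differences lay above 0 in 8 and below 0 in 2. Krt5 was 5.05 and 5.31 in 3+ cells, against 5.19 and 5.21 in the control. Trp63 was 4.7 and 4.84 in 3+ cells, against 5.65 and 5.08 in the control. In 3+ cells 4 of the 10 had means above the median gene. The sum of 8 measured adipocyte markers of 10 was 605 to 1011 in 3+ cells, against 4735 to 4815 in the control. The list was split, with 4 genes above and 4 below 0. Lpl averaged 7.20 in 3+ cells and 11.97 in the control, and Pparg was 8.48 and 7.53 in 3+ cells, against 6.56 and 5.44 in the control, with limma adjusted p values of 0.000381 and 0.0208. Adipoq, which defines adipocytes, averaged 3.22 in 3+ cells and 3.62 in the control. The sum of 6 measured hepatocyte markers of 7 was 94 to 96 in 3+ cells and 94 to 104 in the control, with Alb at 3.55 in 3+ cells and 3.71 in the control. That of 6 macrophage markers was 405 to 465 in 3+ cells and 244 to 251 in the control. Of the 6, 1 rose and 1 fell, beside 15.9% and 11.7% of all genes. Cd68 averaged 8.10 in 3+ cells and 4.55 in the control, and Lyz2 5.11 in 3+ cells and 6.51 in the control, with limma adjusted p values of 0.000606 and 0.00581. Ptprc averaged 3.84 in 3+ cells and 3.75 in the control.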

How the data were processed

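The authors deposited 1 table of linear intensity for 45101 probe sets on 10 arrays, with values of 5.70 to 26572 and 0 values below the floor of 1 used here. RMA is named for the 4 control and 3+ arrays, per the submitters' processing notes. The sources used here give neither its version, nor the tool behind the other 6 arrays, nor whether all arrays were normalized together. The tests were planned for log2 values. The deposited intensity proved linear, so it was floored at 1, turned into log2 and quantile normalized over the 10 arrays, the alternative written for that case. No detection calls were used, and background signal shrinks the differences of dim genes. All 30 chosen probe sets had means above the median over genes.

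Genes were assigned to probe sets by the platform table, in which 34945 had 1 gene, 932 had several and 9211 were not listed, and 13 control probe sets that name a gene were left out. The probe set with the highest mean stood for a gene, which left 18193 genes.

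A linear model of 5 group means was fitted to all 10 arrays with limma 3.58.1 (lmFit and eBayes) in R 4.3.3, with 5 residual degrees of freedom. A gene was called at a Benjamini-Hochberg adjusted p under 0.05 over all 18193 genes, two-sided. There were 7 comparisons, plus the F test over groups. The method was tested on simulated data with independent noise on every array. That simulation lacks the deviations shared by same-numbered arrays, so it cannot show how the calls fare under them. Group values are means ± SD and differences are means ± SE of the fit. Where both arrays of a group are said to lie above or below those of another, this is a count and not a test. Branch medians are descriptions, with no test. The number of arrays limits the precision.

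Same-numbered arrays deviated from their group means together, at correlations of 0.477 to 0.872 over the 10 pairs of groups. Only genes with a mean above the median over genes were used. Deviations in the control correlated with those of 0, 1 and 2 divisions at 0.819, 0.796 and 0.4955. With those of 3+ cells, in its own set, they correlated at 0.487. This pairing comes from the data, as the labels state no shared culture. The reported fit does not pair the samples, and the replicate number as a block is an alternative. For the sterol genes the median of replicate 2 minus replicate 1 was 0.46, 0.33 and 0.47 in the control and after 0 and 1 divisions. It was -0.69 after 2 divisions and -0.22 in 3+ cells. A common replicate term does not follow this change of sign, which limits the block's added sterol calls. The fit with the replicate number as a block is given where it changes a member's call or a printed count of a list.

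The members, lists and settings were chosen with earlier results of these data known. Values on every array are given for each gene called in any comparison without the block and for the largest rise and fall of each branch in each comparison. Further lists are given by counts and by up to 3 called genes, or by the gene with the largest difference where none was called. Mbtps2 is given in addition, beside Mbtps1. The alternatives were the block, no normalization, median centring, a floor of 16, leaving out dim genes, the mean of all probe sets, a fit of the 4 arrays compared, and leaving out each array in turn. Promoter windows came from the RefSeq table of GRCm38.p6.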

Additional observations from a re-analysis of the deposited data

How the results depend on the processing

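Of the 22 calls of members over the 7 comparisons, 5 passed under every alternative run, namely Elovl6, Fads1, Fasn and Scd1 in 3+ cells against the control and Elovl6 in 3+ cells against 0 divisions. No called member changed direction. Where 1 array of a group is left out, the other is assumed to vary like the rest. The calls of 2 divisions against the control were 0 with a floor of 16, 0 in a fit of the 4 arrays alone and 1 with all probe sets averaged, and ranged over 0 to 1 without 1 array. The calls of 3+ against 0 divisions were 13 with the replicate block and 5 with a floor of 16, and ranged over 1 to 5 without 1 array. Those of 3+ against 2 divisions were 8 with the block and ranged over 0 to 2 without 1 array. Those of 3+ against the control ranged over 4 to 10 without 1 array, and those of 1 division against the control were 1 with the block. The F test called 9 with the block, 2 with a floor of 16 and 2 to 6 without 1 array. The block changed no call of a member other than those named beside the results. The Srebf2 difference between 3+ and control, which had no call, was -0.16 to 0.36 over the alternatives.

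Among the named genes of the further lists, a floor of 16 also ended the calls of Acsl4 and Cpt2 for 3+ against the control (0.0579 and 0.0644), of Dgat2 for 2 divisions against the control (0.104), of Mbtps1, Lrp8, Apoe, Hsd17b12 and Acsl4 for 3+ against 0 divisions (0.0538 to 0.0873), and of Acadl and Decr1 for 3+ against 2 divisions (0.0771 and 0.0797). Averaging all probe sets ended those of Mbtps1, Acsl4 and Cpt2 for 3+ against the control (0.0577 to 0.0899), of Dgat2 for 2 divisions (0.0612), of Mbtps1, Acsl4 and Cpt1a for 3+ against 0 divisions (0.0964 to 0.138) and of Acadl for 3+ against 2 divisions (0.278). The 4 arrays alone ended those of Mbtps1 and Cpt2 (0.0617 and 0.101), of Dgat2 for 2 divisions (0.123), of Mbtps1 and Lrp8 for 3+ against 0 divisions (0.0715 and 0.051), and of Decr1 (0.0837), which also missed with no normalization (0.0526) and median centring (0.0542).

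The fatty acid median was 0.65 with median centring and 0.28 with all probe sets averaged for 3+ against the control, where 0.55 was the reported value, and 0.49 to 0.74 without 1 array. For 3+ against 0 divisions it was 0.59 with median centring and 0.22 with all probe sets averaged, where 0.49 was reported. With all probe sets averaged it was 0.15 for 0 divisions against the control and -0.15 for 2 against 0 divisions. Without 1 array it ranged over 0.0034 to 0.16 for 0 divisions and over -0.067 to 0.11 for 1 division against the control. The sterol median without 1 array ranged over -0.12 to 0.24 for 3+, -0.63 to -0.32 for 0 divisions and -0.38 to -0.023 for 1 division against the control. It ranged over -0.55 to 0.053 for 2 divisions against the control, over -0.11 to 0.42 for 2 against 0 divisions, and over 0.050 to 0.81 for 3+ against 2 divisions. The cause of these changes was not tested.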

Other observations

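Genes of fatty acid oxidation were counted beside those of synthesis. Of 15 listed genes 14 were measured, and 4 were higher and 0 lower after 2 divisions than in the control, beside 6.12% of all genes called. Set and group cannot be told apart in that contrast. Differences from the control lay above 0 in 13 of the 14 after 0 divisions, 12 after 1 and 13 after 2. In 3+ cells, within the set of the control, 8 lay above 0 and 6 below, with a median of 0.10. Of the 18193 genes 8939, 9246, 9263 and 9615 lay above 0, in the same order. Cpt1a, which admits long-chain fatty acids into mitochondria, averaged 11.23 ± 0.0036 after 2 divisions and 10.31 ± 0.11 in the control (SD, n = 2 each), a rise of 0.91 ± 0.11 with a limma adjusted p of 0.00577. Cpt2, its partner at the inner membrane, rose by 0.81 ± 0.16 with 0.0273, and Etfdh, which passes electrons from fatty acid oxidation to the respiratory chain, by 0.68 ± 0.12 with 0.0191. With the replicate block 9 of the 14 passed, beside 15.5% of all genes. In 3+ cells 5 genes were higher and 0 lower than in the control, beside 15.9% of all genes higher and 11.7% lower, among them Etfdh by 0.73 ± 0.12, Eci1 by 0.57 ± 0.12 and Cpt2 by 0.52 ± 0.16, with limma adjusted p values of 0.00322, 0.00976 and 0.0451. With the block Acadm, Decr1 and Cpt1a were lower than in the control as well, by -0.68 ± 0.22, -0.51 ± 0.18 and -0.32 ± 0.11, with adjusted p values of 0.00184, 0.0293 and 0.0450.

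The same genes were compared between 3+ cells and the cohorts of 2 and 0 divisions. These contrasts cross the sets of arrays, so set and group cannot be told apart. Against 2 divisions 0 were higher and 3 lower, beside 5.97% of all genes called, and 12 of 14 lay below 0 with a median of -0.25. Cpt1a was lower by -1.23 ± 0.11, Acadl by -0.95 ± 0.21 and Decr1 by -0.79 ± 0.18, with limma adjusted p values of 0.00942, 0.0407 and 0.0477. Acadl and Decr1, dehydrogenase and reductase of the oxidation pathway, were lost without each of the 4 arrays in turn (0.0525 to 0.29), and Cpt1a without 3+ replicate 2 (0.0916) or replicate 2 of 2 divisions (0.0558). Against 0 divisions Cpt1a was the sole call, -0.73 ± 0.11 with a limma adjusted p of 0.00669, beside 13.9% of all genes. With the block 5 genes were lower and 1 higher, beside 25.6% of all genes. The calls after 2 divisions were lost without replicate 1 of 2 divisions (0.0532, 0.171 and 0.124 for Cpt1a, Cpt2 and Etfdh). Cpt2 was also lost without each of the other 3 arrays (0.0544 to 0.118) and with a floor of 16 (0.0525), Etfdh without either control array (0.0544 and 0.0933) and with all probe sets averaged (0.206), and all 3 in a fit of the 4 arrays alone (0.0656 to 0.123). In 3+ cells Etfdh passed under every alternative run, Eci1 was lost without 3+ replicate 2 (0.0628) or control replicate 2 (0.0504), and Cpt2 without 3+ replicate 1 (0.225) or either control array (0.19 and 0.0771). Cpt1a against 0 divisions was lost without 3+ replicate 2 (0.0573) or replicate 1 of 0 divisions (0.058).

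Of 9 listed genes of sterol efflux and its regulator LXR 8 were measured, and in 3+ cells 2 were higher and 2 lower than in the control, beside 15.9% of all genes higher and 11.7% lower. With the block 3 were lower, beside 3149 of 18193 genes, Rxra being added with adjusted p values of 0.0774 without and 0.00109 with it. Apoe, the apolipoprotein, averaged 4.53 ± 0.62 in 3+ cells and 8.64 ± 1.71 in the control (SD, n = 2 each), lower by -4.12 ± 0.76 with a limma adjusted p of 0.00546. Mylip, a ligase that removes lipoprotein receptors, was lower by -1.14 ± 0.26 with 0.0128, and Abca1, a cholesterol exporter, higher by 0.96 ± 0.18 with 0.00564. Against 0 divisions Apoe was lower in 3+ cells by -3.38 ± 0.76 with 0.0260, the sole call there (3 lower with the block), and lost without each of the 4 arrays in turn (0.0604 to 0.155). Apoe and Abca1 passed against the control under every alternative run, and Mylip was lost without 3+ replicate 2 (0.0967) or control replicate 1 (0.076). Against the control Apoe was at 7.90 after 0 divisions, a difference of -0.74 ± 0.76 with a limma adjusted p of 0.795. In 3+ cells against 0 divisions, 5.44% of all genes were called lower without the block and 2041 of 18193 with it. Comparisons of 0 divisions with 3+ cells or the control cross the sets of arrays, so set and group cannot be told apart.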
